A study of Homo sapiens with 12 samples.

Results

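The mitochondrial ribosomal protein genes are the nuclear genes whose symbols begin with MRPL, for the large subunit of the mitochondrial ribosome, or MRPS, for the small subunit. They were taken by symbol from both deposited gene tables, as MRPL or MRPS followed by a number and at most 1 letter, which leaves out their pseudogenes. This gave 78 of 62703 genes, 49 with an MRPL and 29 with an MRPS symbol. RNA-seq was available from 2 established human hepatocellular carcinoma lines, Huh7 and Hep3B, with 3 libraries in each of 4 groups. The groups were Huh7 with the hairpin shSLC6A8, Huh7 with the control hairpin shNC, Hep3B with shSLC6A8, and Hep3B with shNC. SLC6A8 is the creatine transporter, and all 4 groups were kept in hypoxia for 24 h, so no group with normal oxygen enters any comparison. The labels do not say whether the 3 libraries of a group came from separate cultures, how many hairpins or clones were used, or what vector carried them, so the p-values below reflect variation among libraries that could be technical only.

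Mitochondria keep their own ribosome, which makes the core membrane proteins of the respiratory chain and of the ATP synthase. Its ribosomal RNAs are transcribed from mitochondrial DNA, whereas all its proteins are coded in the nucleus, made in the cytosol and imported. Some of these proteins descend from bacterial ribosomal proteins and others were added in the mitochondrial lineage. Hepatocytes are rich in mitochondria, and in hypoxia tumour cells shift their energy supply towards glycolysis. Factors of the ETS family, NRF1 and YY1 are known regulators of nuclear genes for mitochondrial proteins.

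Promoter sequence was available for 70 of the 78 genes, from a RefSeq table of build GRCh38.p14 with 250 bases before and 50 after each start, matched by symbol. Windows from 220 bases before to 30 bases after the start are shown, 5′ to 3′ on the gene's strand, for genes the results below turn on. MRPL46, which fell most in Huh7, lies head to head with MRPS11 on chromosome 15. MRPS24 and MRPS18A are shown as genes that fell in Huh7 and hold motifs, so the windows are not a sample of the genes that fell. MRPL41 and MRPL19 changed in opposite directions in the 2 lines, for MRPL19 in Hep3B depending on the scaling, as given below. Capitals mark matches to any of 4 motifs searched on both strands: AAGATGGC (a YY1 motif), CCGGAAG (an ETS motif), CACGTG (an E-box) and ACGTG (a motif of hypoxia-inducible factors, contained in the E-box).
MRPL46: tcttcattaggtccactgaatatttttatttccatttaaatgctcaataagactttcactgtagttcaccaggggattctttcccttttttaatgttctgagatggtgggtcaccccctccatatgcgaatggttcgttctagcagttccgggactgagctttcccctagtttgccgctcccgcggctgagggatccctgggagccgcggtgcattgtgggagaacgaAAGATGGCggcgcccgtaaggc
MRPS11: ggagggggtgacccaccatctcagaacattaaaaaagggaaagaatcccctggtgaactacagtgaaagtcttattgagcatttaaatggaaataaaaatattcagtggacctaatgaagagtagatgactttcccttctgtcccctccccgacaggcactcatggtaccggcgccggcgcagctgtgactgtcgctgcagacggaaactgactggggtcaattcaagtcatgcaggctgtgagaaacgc
MRPS24: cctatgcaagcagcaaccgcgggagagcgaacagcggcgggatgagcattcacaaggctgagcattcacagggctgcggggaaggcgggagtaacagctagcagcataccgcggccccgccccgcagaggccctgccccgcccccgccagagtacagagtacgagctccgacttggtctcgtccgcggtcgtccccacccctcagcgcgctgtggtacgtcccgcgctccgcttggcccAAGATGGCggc
MRPS18A: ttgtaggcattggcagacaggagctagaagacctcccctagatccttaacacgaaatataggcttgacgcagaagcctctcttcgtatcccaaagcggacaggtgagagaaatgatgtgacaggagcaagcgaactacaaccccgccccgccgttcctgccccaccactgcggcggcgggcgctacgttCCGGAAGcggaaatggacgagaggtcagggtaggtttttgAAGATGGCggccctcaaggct
MRPL41: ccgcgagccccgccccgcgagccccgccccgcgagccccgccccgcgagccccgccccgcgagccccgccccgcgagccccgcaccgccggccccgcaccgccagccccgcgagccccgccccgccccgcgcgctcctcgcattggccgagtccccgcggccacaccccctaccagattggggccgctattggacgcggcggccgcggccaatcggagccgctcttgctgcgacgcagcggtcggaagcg
MRPL19: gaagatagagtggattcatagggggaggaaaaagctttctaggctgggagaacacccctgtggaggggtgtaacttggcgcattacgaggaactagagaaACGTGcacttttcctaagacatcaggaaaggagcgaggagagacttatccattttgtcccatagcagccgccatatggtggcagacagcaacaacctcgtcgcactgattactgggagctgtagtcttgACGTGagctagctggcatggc

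The windows lie at chr15:88467359-88467608 on the minus strand for MRPL46, chr15:88467488-88467737 on the plus strand for MRPS11, chr7:43869488-43869737 on the minus strand for MRPS24, chr6:43687762-43688011 on the minus strand for MRPS18A, chr9:137551659-137551908 on the plus strand for MRPL41 and chr2:75646563-75646812 on the plus strand for MRPL19. The windows of MRPL46 and MRPS11 share 121 bases, and the 2 starts are 320 bases apart. They were the only pair of these genes with divergent starts within 1000 bases, although 22 of the 70 had some divergent RefSeq start within that distance. The capitals are the YY1 motif just after the starts of MRPL46, MRPS24 and MRPS18A, the ETS motif just before the start of MRPS18A, and ACGTG at 2 places in MRPL19. The printed windows of MRPS11 and MRPL41 hold none of the 4 motifs.

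Over the full 300-base windows, the YY1 motif stood in 20 of 70 promoters of these genes (28.6%), against 3.03% of all 27305 promoters in the table. The ETS motif stood in 29 of 70 (41.4%), against 10.7% of all promoters. The E-box stood in 7 of 70 (10%), against 7.43%, and ACGTG in 20 of 70 (28.6%), against 21.6%. Among genes that fell in Huh7, 14 of 29 promoters held the YY1 motif (48.3%), against 2 of 16 among those that rose (12.5%) and 4 of 25 among those not called. The ETS motif was at 41.4%, 43.8% and 40.0% in the same 3 sets, the E-box at 17.2%, 6.25% and 4%, and ACGTG at 17.2%, 18.8% and 48.0%. These shares are descriptions of letters in a window, and binding was not measured. The 3 sets follow the main Huh7 calls, whose direction depends on the scaling, as given below. The same shares were not computed for all genes that fell or rose, nor by the calls in Hep3B.

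SLC6A8 itself was at 8.63, 8.60 and 11.02 CPM (counts scaled per library with TMM) in Huh7 shSLC6A8 and at 35.6, 36.9 and 36.7 CPM in Huh7 shNC, a log2 change of -1.95 ± 0.09 (SE; adjusted p = 1.02e-11, edgeR quasi-likelihood test with Benjamini-Hochberg adjustment). In Hep3B it was at 34.6, 33.9 and 35.1 CPM with shSLC6A8 and at 361.8, 378.2 and 371.2 CPM with shNC, a log2 change of -3.42 ± 0.05 (adjusted p = 2.13e-10, edgeR). SLC6A8 was thus low in every library labelled shSLC6A8, without overlap. Its level in Hep3B shSLC6A8 was close to that in Huh7 shNC in CPM, but the 2 lines were scaled separately. In length-scaled TPM the means of these 2 groups were 21.1 and 14.3. Libraries held 21065965 to 28078068 estimated counts, and the Hep3B shSLC6A8 libraries, at 24201940 to 27445278, were deeper than those of Hep3B shNC, at 21065965 to 23237892. All 8 hepatocyte markers were present, with a summed level of 11840 to 12163 TPM (a level scaled per gene length) in Huh7 shSLC6A8, 8251 to 8939 TPM in Huh7 shNC, 12091 to 12646 TPM in Hep3B shSLC6A8 and 15330 to 15582 TPM in Hep3B shNC. The 8 markers of blood, endothelial and stromal cells summed to 21.3 to 26.6 TPM in the shSLC6A8 libraries of both lines and 34.9 to 63.7 TPM in the shNC libraries. The part of these marker differences in the results below was not tested.

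All 78 genes were expressed in every library, with a lowest estimated count of 147, and 71 were at or above 20 TPM in every library. Together they took 0.510% to 0.533% of counts in Huh7 shSLC6A8, 0.491% to 0.536% in Huh7 shNC, 0.381% to 0.432% in Hep3B shSLC6A8 and 0.354% to 0.383% in Hep3B shNC. Their summed TPM was 7320 ± 101 in Huh7 shSLC6A8 and 7049 ± 200 in Huh7 shNC, with overlapping libraries (SD, n = 3 each). In Hep3B it was 6283 ± 273 with shSLC6A8 and 5624 ± 188 with shNC, without overlap between libraries. On the TPM scale the median of all genes also moved up with the knockdown, by 0.125 (log2) in Huh7 and 0.172 in Hep3B. In bulk samples, a lower level per cell and a lower share of cells with a transcript cannot be told apart.

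**Figure D1:**
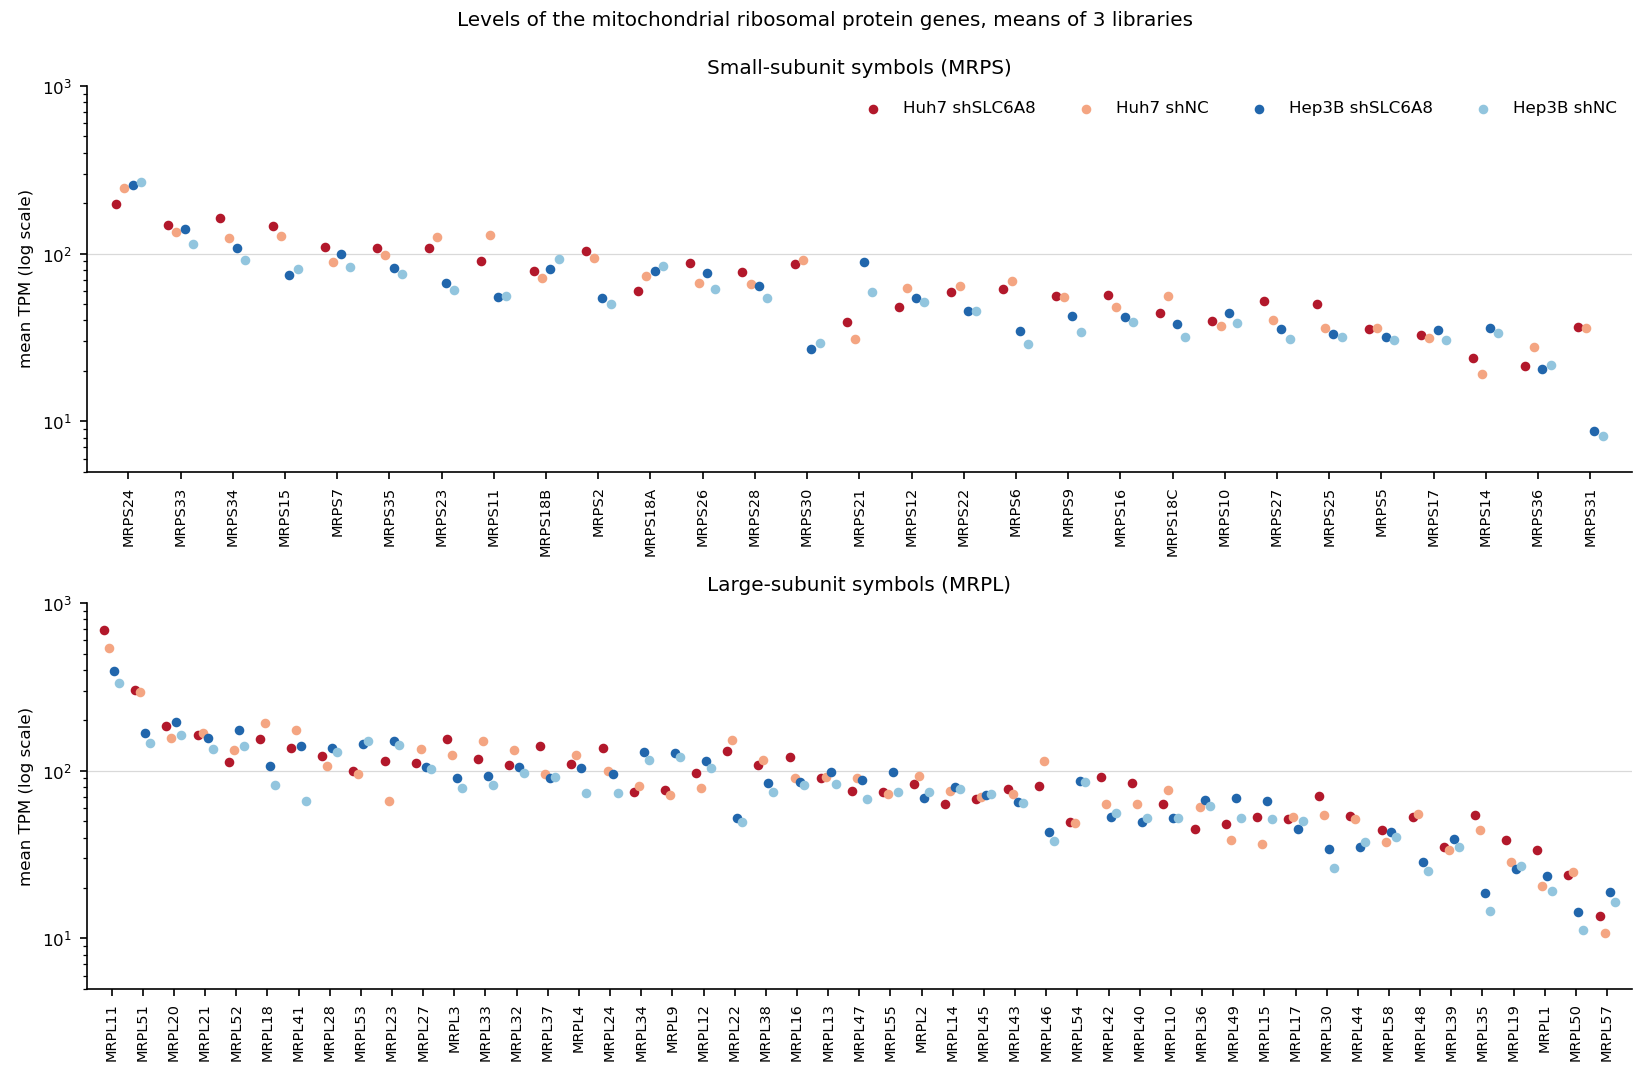
Mean TPM (log scale) of each gene in the 4 groups, with small-subunit symbols above and large-subunit symbols below, ordered by the mean over all libraries. Each point is the mean of 3 libraries, and MRPL11 stands above all others in every group, while MRPS31 is at 8.13 to 8.74 TPM in Hep3B and 35.9 to 36.4 TPM in Huh7.

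MRPL11, the counterpart of the bacterial protein at the base of the stalk that contacts translation factors, had the highest level per length in all 4 groups. It was at 693 ± 20.5 TPM in Huh7 shSLC6A8, 538 ± 38.2 TPM in Huh7 shNC, 392 ± 36.9 TPM in Hep3B shSLC6A8 and 332 ± 15.0 TPM in Hep3B shNC. MRPS24, a small-subunit protein, followed by mean over all libraries, at 197 ± 8.51, 246 ± 8.63, 258 ± 21.8 and 268 ± 18.9 TPM in the same order of groups. MRPL51 was at 303 ± 11.6, 293 ± 14.1, 168 ± 12.4 and 147 ± 8.65 TPM, so its place relative to MRPS24 differs between the lines. MRPL20, at 184 ± 5.71, 157 ± 7.54, 195 ± 9.69 and 164 ± 7.38 TPM, was above MRPL51 in Hep3B and below it in Huh7. At the low end, MRPL57 was at 13.6 ± 1.59 and 10.8 ± 1.45 TPM in Huh7 shSLC6A8 and shNC and at 18.9 ± 1.07 and 16.5 ± 1.67 TPM in Hep3B shSLC6A8 and shNC. MRPL50 was at 24.0 ± 0.96 and 24.9 ± 0.03 TPM in Huh7 shSLC6A8 and shNC, and at 14.5 ± 0.35 and 11.3 ± 1.16 TPM in the Hep3B groups. MRPS31 was the lowest of all in Hep3B, at 8.74 ± 0.28 TPM with shSLC6A8 and 8.13 ± 0.70 TPM with shNC, but not in Huh7, at 36.4 ± 1.16 and 35.9 ± 2.12 TPM. MRPS36 lay between 20.6 and 27.6 TPM in all 4 group means, and its libraries of the 2 hairpins did not overlap in Huh7 and did in Hep3B.

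Large-subunit genes had a median level of 83.6 TPM in Huh7 shSLC6A8, 78.9 TPM in Huh7 shNC, 85.2 TPM in Hep3B shSLC6A8 and 73.9 TPM in Hep3B shNC. The small-subunit median was 59.7, 66.2, 54.1 and 50.3 TPM in the same order, below the large-subunit median in each group. Over the 78 genes the order of levels in Hep3B shNC and Huh7 shNC was alike to a Spearman coefficient of 0.735, a description over genes that share libraries and length model. The 2 tables were scaled separately, so levels set across the lines carry no test.

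In Huh7, 52 of the 78 genes changed with shSLC6A8, 33 lower and 19 higher, but this direction depends on the scaling: with library totals the calls were 28 lower and 23 higher, and on the TPM scale 20 lower and 31 higher (of all genes 53.1%, 18.1% lower and 35.0% higher). Of all 17022 genes tested in Huh7, 61.8% were called, 31.0% lower and 30.9% higher, and with library totals 62.3% were called (25.1% lower, 37.2% higher), so the share of 66.7% among these genes is near the background, and it is below the 74.4% of genes at or above the CPM of the lowest of them. The 3 libraries of each hairpin did not overlap in CPM for 54 of the 78, against 66.6% of all genes. No called change reached a log2 of 1, against 15.2% of all genes, and 9 reached 0.5, against 36.0%. The authors' deposited table marked 0 of the 78 as significant in either line, while its adjusted p was under 0.05 for 52 in Huh7 and 15 in Hep3B.

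MRPL46, a large-subunit protein with no bacterial counterpart, fell most in Huh7. It was at 46.7, 47.2 and 48.0 CPM with shSLC6A8 and at 70.9, 84.2 and 77.9 CPM with shNC, a log2 change of -0.72 ± 0.06 (SE; adjusted p = 4.06e-08, edgeR). All 3 shSLC6A8 libraries lie close together and far below the shNC libraries. MRPS11 (gene at chr15:88467708-88480776), the counterpart of a bacterial protein of the small-subunit platform, starts next to MRPL46 (chr15:88459478-88467388) and was at 64.7, 65.2 and 69.7 CPM with shSLC6A8, against 97.7, 106.8 and 94.2 CPM with shNC. Its log2 change was -0.58 ± 0.06 (adjusted p = 1.88e-07, edgeR), again without overlap.

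MRPL36, a small protein with a bacterial counterpart, was at 12.7, 13.5 and 14.02 CPM in Huh7 shSLC6A8 and at 20.2, 21.2 and 19.6 CPM in Huh7 shNC (log2 change -0.60 ± 0.08, adjusted p = 7.15e-06, edgeR). MRPS12, counterpart of the bacterial protein of the decoding centre, was at 25.7, 25.8 and 28.9 CPM with shSLC6A8 and at 39.8, 43.7 and 36.2 CPM with shNC (-0.57 ± 0.08, adjusted p = 6.54e-06, edgeR). MRPS36 was at 14.02, 19.97 and 18.36 CPM with shSLC6A8 and at 23.5, 29.6 and 23.8 CPM with shNC, a wider spread than for the others (-0.55 ± 0.13, adjusted p = 0.00213, edgeR). MRPL41, a large-subunit protein added in mitochondria, was at 35.0, 35.4 and 38.6 CPM with shSLC6A8 and at 48.2, 61.0 and 49.7 CPM with shNC (-0.54 ± 0.08, adjusted p = 2.87e-05, edgeR). The 2 hairpins did not overlap for any of these 6 genes, and their calls held in all 18 alternative settings run in Huh7. MRPS24, the most abundant small-subunit gene, also fell, at 62.9, 64.2 and 70.9 CPM with shSLC6A8 against 95.7, 100.1 and 88.8 CPM with shNC (-0.52 ± 0.06, adjusted p = 1.17e-06, edgeR). MRPL51, the gene with the next highest mean level after MRPL11 and MRPS24, had a called change of -0.17 ± 0.06 (adjusted p = 0.015, edgeR) that was lost without shSLC6A8 replicate 1 (adjusted p = 0.116) or 2 (adjusted p = 0.0564) and also with library totals (adjusted p = 0.297), with the length trend removed (adjusted p = 0.819) and with all 12 libraries in 1 fit (adjusted p = 0.116), and that turned on the TPM scale.

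Of those that rose in Huh7, MRPL23, counterpart of a bacterial protein beside the exit tunnel, changed most. It was at 37.6, 37.9 and 38.5 CPM with shSLC6A8 and at 26.9, 28.5 and 21.1 CPM with shNC, a log2 change of 0.58 ± 0.09 (adjusted p = 3.35e-05, edgeR). Its RefSeq span holds H19 and an antisense gene, and the counting is not stated to use strand, so reads of these cannot be told apart from its own. MRPS25, a small-subunit protein added in mitochondria, was at 155, 158 and 156 CPM with shSLC6A8 and at 112, 117 and 104 CPM with shNC (0.49 ± 0.05, adjusted p = 2.62e-07, edgeR). MRPL19, with a bacterial counterpart, was at 51.0, 51.8 and 53.5 CPM with shSLC6A8 and at 36.4, 38.0 and 36.6 CPM with shNC (0.49 ± 0.06, adjusted p = 1.31e-06, edgeR). Both pairs of groups are tight and far apart.

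MRPL1, counterpart of the protein of the bacterial ribosome's mobile stalk at the exit site, was at 24.0, 21.4 and 22.8 CPM in Huh7 shSLC6A8 and at 16.1, 19.1 and 14.9 CPM in Huh7 shNC (0.44 ± 0.09, adjusted p = 0.000516, edgeR). MRPL15 was at 27.1, 28.9 and 27.8 CPM with shSLC6A8 and at 21.1, 23.1 and 20.6 CPM with shNC (0.37 ± 0.07, adjusted p = 0.00029, edgeR). MRPL37 was at 129, 130 and 136 CPM with shSLC6A8 and at 102, 108 and 101 CPM with shNC (0.35 ± 0.05, adjusted p = 1.13e-05, edgeR). The libraries of the 2 hairpins do not overlap for any of the 3, and the calls of all 6 genes held in the 18 alternative settings. MRPL11, the most abundant, also rose, at 425, 434 and 440 CPM against 355, 410 and 361 CPM (0.21 ± 0.05, adjusted p = 0.00318, edgeR).

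**Figure D2:**
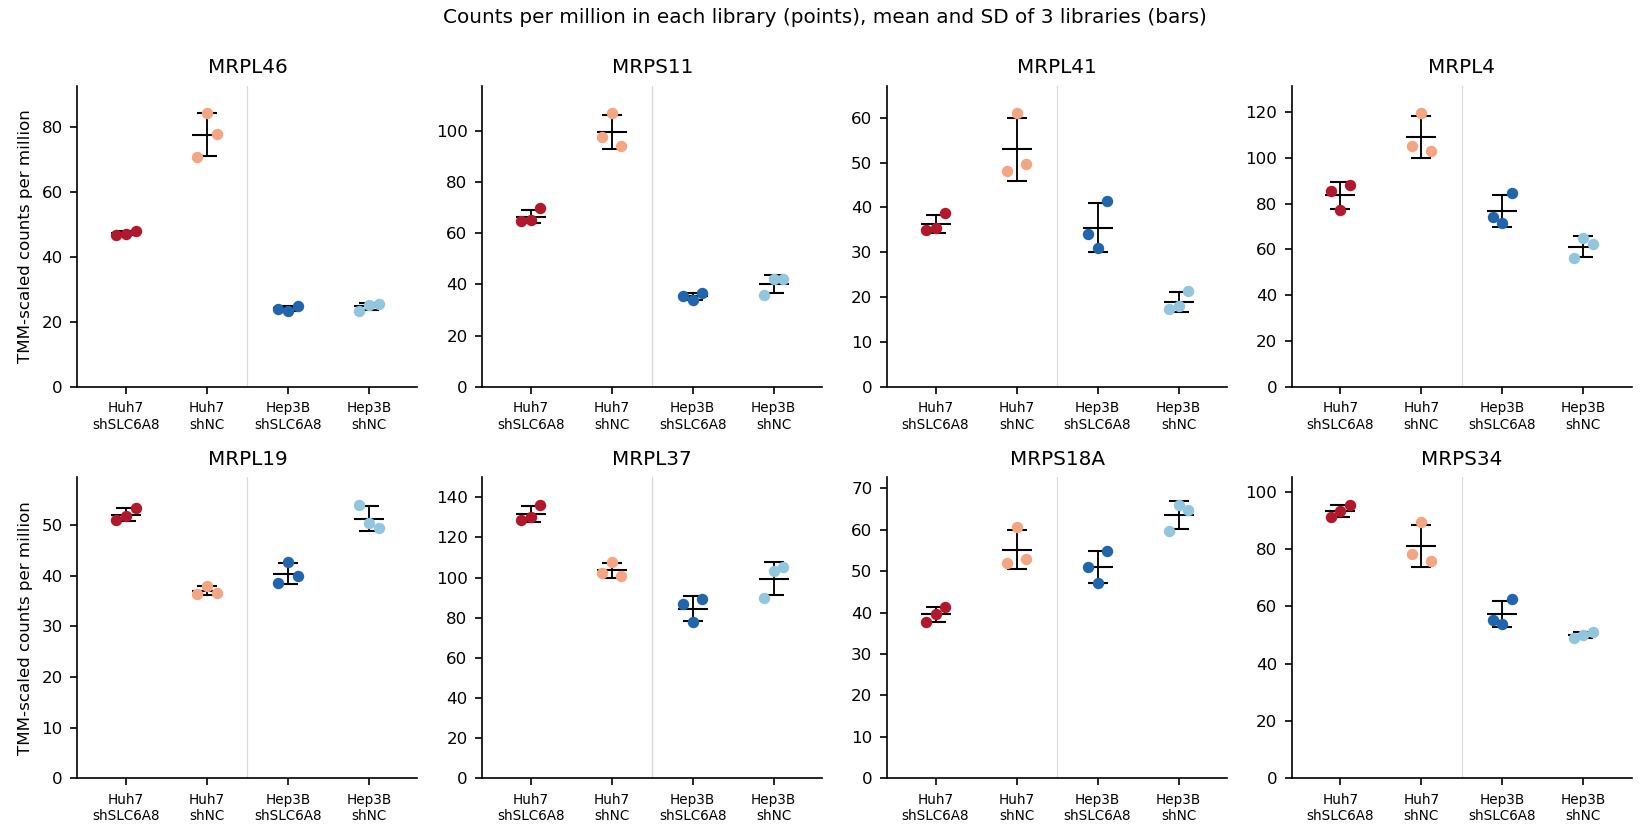
TMM-scaled CPM of 8 genes in each library (points), with the mean and SD of 3 libraries (bars), for Huh7 and Hep3B and with shSLC6A8 left of shNC. MRPL46 and MRPS11 are low in Huh7 shSLC6A8 against their control. In Hep3B their libraries overlap, and MRPS11 had a change of -0.18 that missed the threshold (adjusted p = 0.0867, edgeR). MRPL41 and MRPL4 are low in Huh7 shSLC6A8 but high in Hep3B shSLC6A8, and MRPL19 and MRPL37 show the opposite. MRPS18A is low and MRPS34 high with shSLC6A8 in both lines. The Hep3B calls of MRPL19, MRPL37 and MRPS18A were lost with library totals and on the TPM scale.

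In Hep3B, 17 of the 78 genes changed with shSLC6A8, 12 lower and 5 higher, but with library totals 1 was lower and 27 were higher, and on the TPM scale 1 was lower and 29 were higher (of all genes 39.7%, 9.47% lower and 30.3% higher). Of all 16181 genes tested in Hep3B, 40.1% were called, 21.2% lower and 18.9% higher, so with TMM the share of 21.8% among these genes is below the background. The distance depends on the scaling. The share was 35.9% with library totals, against 50.5% of all genes, and 35.9% with the length trend removed, against 46.7%. On the TPM scale it was 38.5%, near the 39.7% of all genes. The libraries of the 2 hairpins did not overlap for 23 of the 78, against 51.1% of all genes. With library totals the median of all genes moved up by 0.203 (log2), and 50.5% of all genes were then called, 12% lower and 38.5% higher. The count of 17 was 8 without shSLC6A8 replicate 1, 8 without shNC replicate 2 and 9 without shNC replicate 3. Only MRPL41 was called with a log2 change of 0.5 or more, against 18.5% of all genes, and none with 1 or more, against 6.84%.

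MRPL41 was at 34.0, 31.0 and 41.5 CPM in Hep3B shSLC6A8 and at 17.3, 18.1 and 21.4 CPM in Hep3B shNC, a log2 change of 0.91 ± 0.12 (adjusted p = 0.000226, edgeR). Each shSLC6A8 library is well above every shNC library, whereas in Huh7 the order is the opposite. MRPS21, with a bacterial counterpart in the small subunit, was at 69.5, 58.9 and 72.6 CPM with shSLC6A8 and at 44.1, 54.8 and 51.7 CPM with shNC (0.42 ± 0.10, adjusted p = 0.00684, edgeR). MRPL4, counterpart of a protein that lines the bacterial exit tunnel, was at 74.1, 71.4 and 84.6 CPM with shSLC6A8 and at 56.2, 64.9 and 62.6 CPM with shNC (0.32 ± 0.08, adjusted p = 0.00859, edgeR). These 3 calls held in all 18 alternative settings run in Hep3B.

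MRPS18B, a small-subunit paralog described below, fell most in Hep3B. It was at 74.2, 62.3 and 72.1 CPM with shSLC6A8 and at 84.3, 93.6 and 95.01 CPM with shNC (-0.39 ± 0.08, adjusted p = 0.00263, edgeR), and it was the 1 call toward lower that held in all 18 settings. MRPL19 was at 38.6, 42.7 and 40.0 CPM with shSLC6A8 and at 54.0, 50.4 and 49.3 CPM with shNC (-0.34 ± 0.07, adjusted p = 0.00223, edgeR). MRPL44, which carries a ribonuclease III-like fold, was at 38.1, 34.3 and 39.5 CPM with shSLC6A8 and at 46.9, 46.8 and 45.7 CPM with shNC (-0.32 ± 0.07, adjusted p = 0.00435, edgeR). The groups do not overlap for these genes, but MRPL19 and MRPL44 lost their calls with library totals (adjusted p = 0.0953 and 0.129).

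MRPL2, counterpart of a bacterial protein next to the peptidyl transferase centre, was at 32.5, 28.4 and 35.8 CPM in Hep3B shSLC6A8 and at 40.3, 43.6 and 38.1 CPM in Hep3B shNC (-0.34 ± 0.09, adjusted p = 0.0149, edgeR). That call was lost without either of shNC replicate 2 and shSLC6A8 replicate 1 (adjusted p = 0.0717 and 0.0519). MRPL17 was at 41.0, 35.8 and 41.995 CPM with shSLC6A8 and at 43.8, 53.7 and 50.4 CPM with shNC (-0.32 ± 0.09, adjusted p = 0.018, edgeR), and its call was lost without shNC replicate 2 (adjusted p = 0.0865) or 3 (adjusted p = 0.057). Both were also lost with library totals (adjusted p = 0.19 for MRPL2 and 0.237 for MRPL17). In both genes the lowest shNC library lies only slightly above the highest shSLC6A8 library.

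Of the 78 genes, 11 were called in both lines, 7 in the same direction and 4 in opposite directions, while 41 were called in Huh7 alone, 6 in Hep3B alone and 20 in neither. Of all 14796 genes tested in both lines, 14.6% were called in the same direction and 14.1% in opposite directions. Across the 78 genes the changes in Hep3B and Huh7 had a Pearson coefficient of -0.017, against 0.033 over all genes, as a description. MRPL2, MRPL45, MRPS18A, MRPS22 and MRPS30 were lower with shSLC6A8 in both lines by TMM scaling, and with library totals all 5 lost their Hep3B call. MRPL35 and MRPS34 were higher in both. Of the 4 genes called in opposite directions, MRPL19 and MRPL37 also lost their Hep3B call with library totals.

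MRPS34, a small-subunit protein added in mitochondria, was at 91.3, 93.5 and 95.5 CPM in Huh7 shSLC6A8 and at 78.2, 89.4 and 75.9 CPM in Huh7 shNC (0.20 ± 0.06, adjusted p = 0.00813, edgeR), a call lost without shNC replicate 3 (adjusted p = 0.0531). In Hep3B it was at 55.4, 54.0 and 62.6 CPM with shSLC6A8 and at 48.9, 49.9 and 51.2 CPM with shNC (0.20 ± 0.07, adjusted p = 0.0419, edgeR), a call lost without any 1 of shNC replicates 1, 2 and 3 and shSLC6A8 replicates 1 and 3 (adjusted p = 0.0728 to 0.126). MRPL35 changed by 0.17 ± 0.06 in Huh7 (adjusted p = 0.0166, edgeR; lost without either of shNC replicate 1 and shSLC6A8 replicate 2, adjusted p = 0.0872 and 0.0547, and with the length trend removed, adjusted p = 0.0736). In Hep3B it changed by 0.26 ± 0.08 (adjusted p = 0.0339, edgeR), which was lost without any 1 of shNC replicates 1, 2 and 3 and shSLC6A8 replicates 1 and 3 (adjusted p = 0.0535 to 0.113). The libraries of the hairpins do not overlap for either gene in either line, so these are small and narrowly called changes.

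MRPL45, which in humans sits by the exit tunnel toward the inner membrane, changed by -0.25 ± 0.06 in Huh7 (adjusted p = 0.00135) and -0.24 ± 0.06 in Hep3B (adjusted p = 0.0147; edgeR). Its Hep3B call was lost without any 1 of shNC replicates 2 and 3 and shSLC6A8 replicate 1 (adjusted p = 0.0525 to 0.0603). MRPS22, a small-subunit protein added in mitochondria whose mutations cause respiratory chain disease in humans, changed by -0.27 ± 0.06 (adjusted p = 0.00156) in Huh7 and -0.21 ± 0.07 in Hep3B (adjusted p = 0.0288; edgeR). The MRPS22 call in Hep3B was lost without any 1 of shNC replicates 1 and 2 and shSLC6A8 replicates 1 and 2 (adjusted p = 0.0597 to 0.125). MRPL2 changed by -0.30 ± 0.07 in Huh7 (adjusted p = 0.000871, edgeR). On the TPM scale the Huh7 calls of MRPL45, MRPS22 and MRPL2 were lost (adjusted p = 0.431, 0.19 and 0.0641, limma).

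The change differed between the lines for 31 of the 78 genes by the interaction test, 17 with a higher and 14 with a lower change in Hep3B, against 47.1% of all 18570 genes tested, 23.1% higher and 24.0% lower. With library totals the split was 27 higher and 9 lower. MRPL41 differed most, with a change in Hep3B minus Huh7 of 1.45 ± 0.16 on the log2 scale (adjusted p = 2.84e-06, edgeR). MRPL19 differed by -0.83 ± 0.08 (adjusted p = 2.64e-07, edgeR), having risen in Huh7 and fallen in Hep3B. MRPL4 fell in Huh7, at 85.6, 77.0 and 88.1 CPM with shSLC6A8 and 105, 119 and 103 CPM with shNC, and rose in Hep3B as given above, a difference of 0.71 ± 0.11 (adjusted p = 5.59e-05, edgeR). MRPL37 rose in Huh7 and in Hep3B was at 86.8, 77.7 and 89.1 CPM with shSLC6A8 and at 89.9, 103 and 105 CPM with shNC, a difference of -0.58 ± 0.09 (adjusted p = 5.32e-05, edgeR).

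The Hep3B change of MRPL37 (-0.23 ± 0.07, adjusted p = 0.0301, edgeR) was lost with library totals (adjusted p = 0.624) and without any 1 of shNC replicates 2 and 3 and shSLC6A8 replicates 1 and 2 (adjusted p = 0.0605 to 0.113). MRPL18 was at 82.6, 82.9 and 84.7 CPM in Huh7 shSLC6A8 and at 111, 125 and 116 CPM in Huh7 shNC, and at 60.9, 54.3 and 60.6 CPM in Hep3B shSLC6A8 and 47.0, 52.9 and 53.9 CPM in Hep3B shNC. Its Huh7 fall (-0.49 ± 0.05, adjusted p = 4.91e-07) stands against a Hep3B value of 0.19 ± 0.07 that missed the threshold (adjusted p = 0.057, edgeR) and passed it in 8 of the 18 alternatives. These were library totals (adjusted p = 0.00124), the TPM scale (0.000741), the length trend removed (0.00457), length and GC trends removed (0.00466), no filter (0.0232), a filter of at least 1 CPM in 3 libraries (0.0491), all 12 libraries in 1 fit (0.021) and the fit without Hep3B shSLC6A8 replicate 2 (0.0137). The difference was 0.69 ± 0.09 (adjusted p = 8.26e-06, edgeR).

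For MRPL46 and MRPS11 the lines also differed. In Hep3B, MRPL46 was at 24.0, 23.5 and 24.9 CPM with shSLC6A8 and at 23.5, 25.2 and 25.5 CPM with shNC, with overlapping libraries, and the difference between lines was 0.68 ± 0.10 (adjusted p = 1.43e-05, edgeR). MRPS11 was at 35.4, 33.8 and 36.7 CPM with shSLC6A8 and at 36.0, 42.2 and 42.1 CPM with shNC in Hep3B, a change of -0.18 ± 0.08 that missed the threshold (adjusted p = 0.0867) but passed without shNC replicate 1 (adjusted p = 0.0205). Its difference was 0.40 ± 0.10 (adjusted p = 0.00246, edgeR). MRPS25 and MRPL42, which rose in Huh7 (0.49 ± 0.05 and 0.31 ± 0.05), had Hep3B values of -0.13 ± 0.07 and -0.15 ± 0.06, with differences of -0.61 ± 0.09 (adjusted p = 1.41e-05) and -0.46 ± 0.07 (adjusted p = 6.36e-05, edgeR).

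**Figure D3:**
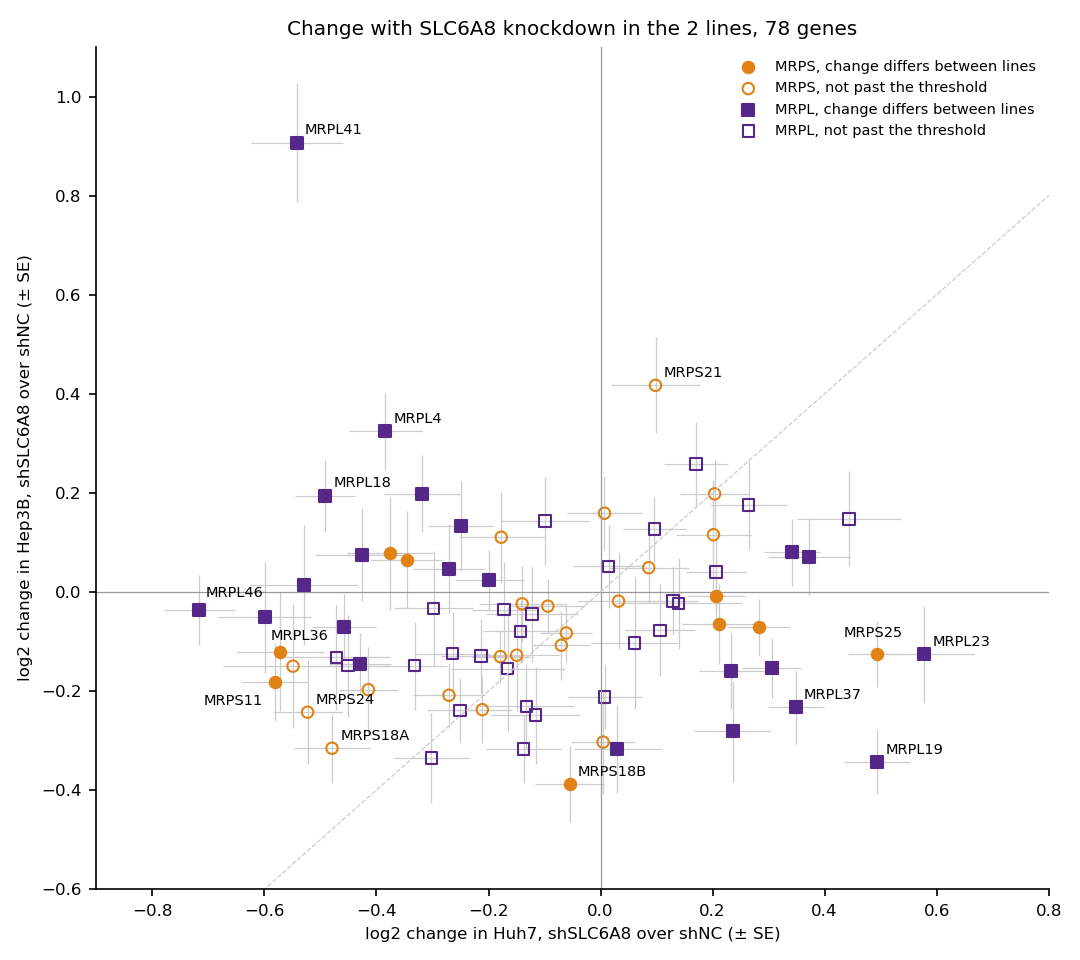
Log2 change (± SE) with shSLC6A8 over shNC in Huh7 (horizontal) and Hep3B (vertical) for the 78 genes, with MRPS symbols as circles and MRPL symbols as squares, filled where the change differed between the lines at adjusted p under 0.05 (edgeR interaction test). The dashed line marks equal change, MRPL41 lies far to the upper left at -0.54 in Huh7 and 0.91 in Hep3B, and the Huh7 values spread more widely than those of Hep3B.

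Set by subunit, 11 small-subunit genes fell and 6 rose of 29 in Huh7, and 22 large-subunit genes fell and 13 rose of 49. The shares called were 58.6% and 71.4%, against 61.8% of all genes (31.0% lower and 30.9% higher). The median log2 change was -0.09 for the small and -0.14 for the large subunit, against 0.001 for all genes tested, but with library totals these were 0.01 and -0.03 against 0.11 for all genes, and on the TPM scale 0.09 and 0.05 against 0.12. The median length of the 78 genes was 1287.5 bases, against 2813 bases for all genes tested. Over the 78 genes the change had a Pearson coefficient with log2 length of 0.295 in Huh7 and -0.102 in Hep3B, against 0.138 and 0.013 over all genes tested, as a description. With the trend with length removed, the medians in Huh7 were -0.02 for the small and 0.02 for the large subunit, against -0.01 for all genes, and 28 genes were called lower and 27 higher (of all genes 63.1%, 31.9% lower and 31.2% higher). With TMM the 39 shorter genes had 19 lower and 8 higher (69.2% called) with a median of -0.17. The 39 longer genes had 14 lower and 11 higher (64.1% called) with a median of -0.07, against 61.8% called of all genes.

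In Hep3B, 5 small-subunit genes fell and 2 rose, and 7 large-subunit genes fell and 3 rose, with medians of -0.08 and -0.05 against 0.01 for all genes, whereas with library totals 1 small-subunit gene was lower and 9 higher, 0 large-subunit genes were lower and 18 higher, and the medians were 0.11 and 0.14 against 0.20. With the length trend removed, 19 of the 78 were called lower and 9 higher (of all genes 46.7%, 24.4% lower and 22.3% higher). The large-subunit median was 0.03 without Hep3B shSLC6A8 replicate 2. Relative to the median of all genes, the median of the 78 in Huh7 stood at -0.136 with TMM, -0.136 with library totals, 0.01 with the length trend removed and -0.07 on the TPM scale. In Hep3B the same distances were -0.0845 with TMM, -0.0844 with library totals, -0.081 with the length trend removed and -0.0437 on the TPM scale. The spread between replicates of a subunit's median was 0.064 to 0.109 on the log2 scale. Both medians come from the same libraries, and the spread of their difference was not computed. Whether the 2 subunits differ was therefore not tested.

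**Figure D4:**
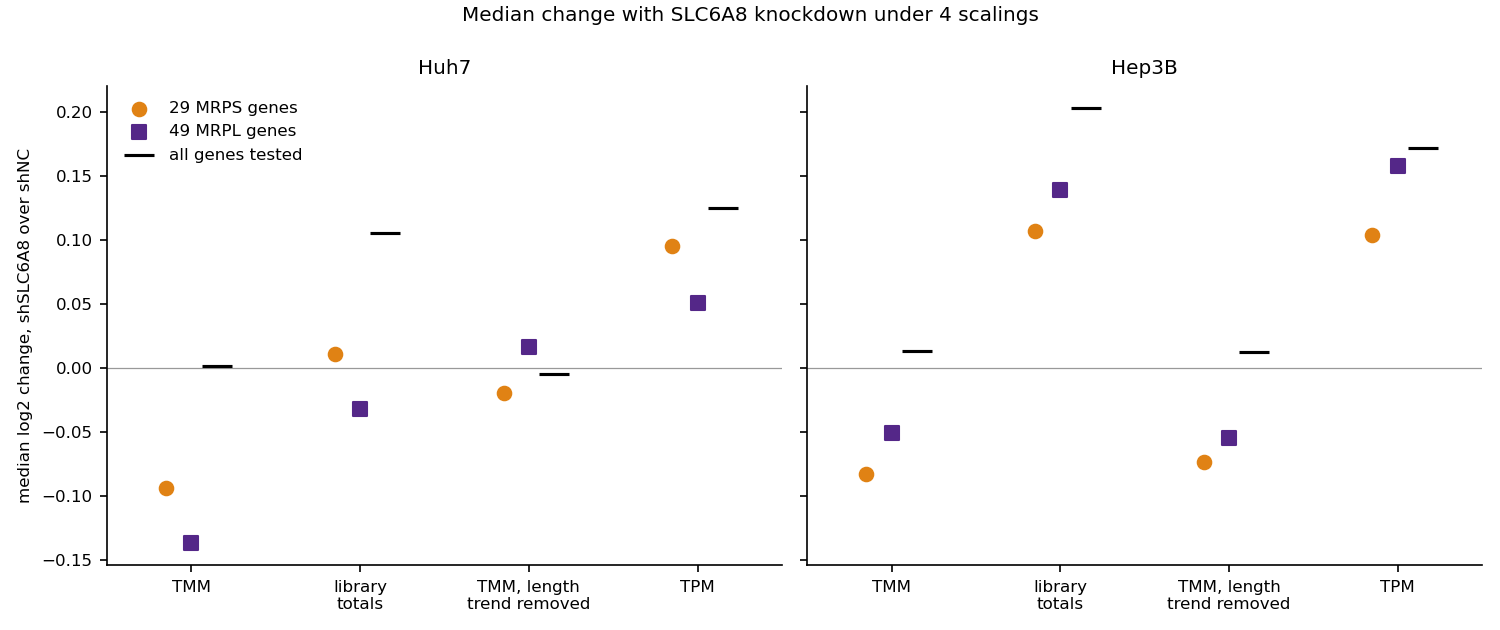
Median log2 change (shSLC6A8 over shNC) of the 29 MRPS genes (circles), the 49 MRPL genes (squares) and all genes tested (bars), in Huh7 and Hep3B, under TMM, library totals, TMM with the length trend removed, and TPM. The subunit medians lie below the all-gene bar in both lines, except for the MRPL genes in Huh7 with the length trend removed, and their sign changes with the scaling.

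Symbol and place in the ribosome differ for 3 genes. In the solved human structure MRPS30 and MRPS18A belong to the large subunit, and MRPS36, which RefSeq names KGD4, is a part of the oxoglutarate dehydrogenase complex and of no ribosomal subunit. By that place 14 of 26 small-subunit genes were called in Huh7, 8 lower and 6 higher, and 37 of 51 large-subunit genes, 24 lower and 13 higher, with medians of -0.07 and -0.14. In Hep3B the counts were 3 lower and 2 higher of 26, and 9 lower and 3 higher of 51, with medians of -0.07 each, but with library totals 1 lower and 9 higher of 26, and 0 lower and 18 higher of 51.

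The 3 MRPS18 paralogs all descend from 1 bacterial protein, and each mitoribosome carries MRPS18A in its large subunit and MRPS18B and MRPS18C in its small subunit. MRPS18A was at 37.8, 39.6 and 41.2 CPM in Huh7 shSLC6A8 and 52.0, 60.5 and 53.0 CPM in Huh7 shNC (-0.48 ± 0.07, adjusted p = 1.03e-05), and at 51.1, 47.2 and 54.8 CPM in Hep3B shSLC6A8 and 59.8, 66.0 and 64.8 CPM in Hep3B shNC (-0.32 ± 0.07, adjusted p = 0.00529, edgeR; with library totals adjusted p = 0.131). MRPS18C fell in Huh7, at 32.3, 35.5 and 38.3 CPM with shSLC6A8 and 42.5, 50.5 and 44.9 CPM with shNC (-0.38 ± 0.08, adjusted p = 0.000415, edgeR), and had a Hep3B value of 0.08 ± 0.12. Its difference between lines, 0.46 ± 0.15 (adjusted p = 0.0175, edgeR), was lost without Huh7 shSLC6A8 replicate 1 (adjusted p = 0.0546). MRPS18B had a Huh7 value of -0.06 ± 0.06, at 69.0, 68.3 and 71.6 CPM with shSLC6A8 and 70.8, 78.6 and 67.7 CPM with shNC, and it fell in Hep3B. Its difference was -0.33 ± 0.10 (adjusted p = 0.0146, edgeR), opposite in sign to that of MRPS18C. MRPS30 changed by -0.21 ± 0.05 in Huh7 (adjusted p = 0.00259) and -0.24 ± 0.07 in Hep3B (adjusted p = 0.0189, edgeR), the Hep3B call being lost without any 1 of shNC replicates 1 and 3 and shSLC6A8 replicate 1 (adjusted p = 0.0522 to 0.0903), and the Huh7 call with library totals (adjusted p = 0.084).

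RefSeq places another gene over 30 of the 78, among them URGCP-MRPS24 over MRPS24, NDUFS6 over MRPL36, KLC4 over MRPL2, RSPH9 over MRPS18A, SSBP3 over MRPL37, EME2 over MRPS34, LIMASI over MRPL4 and a non-coding gene over MRPL41. The 46 with a RefSeq match and no overlap had 21 lower and 8 higher in Huh7 (63.0% called, against 61.8% of all genes) and 7 lower and 2 higher in Hep3B (19.6%, against 40.1%). With library totals these were 16 lower and 10 higher in Huh7 and 1 lower and 14 higher in Hep3B. The tables also list 80 pseudogenes of 36 of the genes, and the 42 genes without one had 18 lower and 11 higher in Huh7 (69.0% called) and 5 lower and 3 higher in Hep3B (19.0%). With library totals these were 15 lower and 13 higher in Huh7 and 0 lower and 16 higher in Hep3B.

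The ribosomal RNAs of the same ribosome were lower with shSLC6A8 in both lines under every scaling. MT-RNR2, the large-subunit RNA, was at 5594, 5586 and 5560 CPM in Huh7 shSLC6A8 and 9804, 10055 and 9316 CPM in Huh7 shNC (-0.80 ± 0.05, adjusted p = 1.25e-10, edgeR). In Hep3B it was at 8847, 8858 and 9299 CPM with shSLC6A8 and 20073, 20255 and 20502 CPM with shNC (-1.17 ± 0.05, adjusted p = 1.06e-07, edgeR). MT-RNR1, the small-subunit RNA, changed by -0.36 ± 0.05 in Huh7 (adjusted p = 9.02e-06) and -0.83 ± 0.06 in Hep3B (adjusted p = 4.26e-06, edgeR). Both RNAs together took 0.705% to 0.711% of counts in Huh7 shSLC6A8 and 1.06% to 1.12% in Huh7 shNC, and 1.13% to 1.17% in Hep3B shSLC6A8 and 2.17% to 2.20% in Hep3B shNC. The labels name a library kit for mRNA, and how it captured these RNAs was not tested. Of the 13 mitochondrial mRNAs, 4 were lower and 3 higher in Huh7, but 4 lower and 7 higher with library totals, 1 lower and 9 higher with the length trend removed, and 0 lower and 9 higher on the TPM scale. In Hep3B 9 were lower and 1 higher (5 lower and 2 higher with library totals). The share called was 53.8% in Huh7, against 61.8% of all genes, and 76.9% in Hep3B, against 40.1%.

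A further list held 6 genes: the ribosomal subunits DAP3, PTCD3, CHCHD1, AURKAIP1 and GADD45GIP1, and NDUFAB1. The last is an acyl carrier protein and not a subunit of the mature ribosome. Of the 6, 5 fell and 1 rose in Huh7 (4 and 1 with library totals). Their median was -0.36 against 0.001 for all genes, of which 61.8% were called. NDUFAB1 was among those that fell (-0.42 ± 0.07, adjusted p = 5.7e-05, edgeR). DAP3, a GTP-binding small-subunit protein, was at 245, 250 and 254 CPM in Huh7 shSLC6A8 and 363, 398 and 358 CPM in Huh7 shNC (-0.58 ± 0.05, adjusted p = 2.27e-08, edgeR). PTCD3, an RNA-binding small-subunit protein, had 0.21 ± 0.05 in Huh7 (adjusted p = 0.0011, edgeR), a call lost with the length trend removed (adjusted p = 0.25). In Hep3B, 2 fell and 1 rose (50%, against 40.1% of all genes), with library totals 0 and 3. GADD45GIP1, a large-subunit protein, was at 68.0, 71.0 and 94.9 CPM in Hep3B shSLC6A8 and 48.7, 57.3 and 58.8 CPM in Hep3B shNC (0.51 ± 0.13, adjusted p = 0.0105), after -0.30 ± 0.08 in Huh7 (adjusted p = 0.00537, edgeR). DAP3 (-0.15 ± 0.05, adjusted p = 0.044) and the acyl carrier protein NDUFAB1 (-0.29 ± 0.10, adjusted p = 0.0458, edgeR) passed narrowly in Hep3B, and both calls were lost without shNC replicate 2 or 3 or shSLC6A8 replicate 1 or 2 (adjusted p = 0.0997 to 0.171).

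Of 26 assembly factors, 6 fell and 7 rose in Huh7 (4 and 10 with library totals), and 1 fell and 3 rose in Hep3B (0 and 18 with library totals). The share called was 50% in Huh7 and 15.4% in Hep3B, against 61.8% and 40.1% of all genes. MRM1, which methylates the large ribosomal RNA, was at 5.96, 5.65 and 6.12 CPM in Huh7 shSLC6A8 and 3.35, 4.10 and 3.09 CPM in Huh7 shNC (0.75 ± 0.15, adjusted p = 0.000312, edgeR). YBEY, an endoribonuclease, changed by -0.53 ± 0.17 in Huh7 (adjusted p = 0.0124, edgeR), a call lost without shSLC6A8 replicate 1 (adjusted p = 0.072) and with the length trend removed (adjusted p = 0.055). In Hep3B, MPV17L2, an inner-membrane protein needed for assembly, was at 22.4, 19.7 and 23.8 CPM with shSLC6A8 and 11.6, 12.7 and 13.4 CPM with shNC (0.80 ± 0.10, adjusted p = 0.000124, edgeR). NOA1, a GTPase, changed by -0.31 ± 0.06 in Hep3B (adjusted p = 0.00262, edgeR), a call lost with library totals (adjusted p = 0.109).

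Of 18 translation factors, 4 fell and 6 rose in Huh7 (2 and 10 with library totals), and 6 fell and 2 rose in Hep3B (4 and 4 with library totals). The share called was 55.6% in Huh7 and 44.4% in Hep3B, against 61.8% and 40.1% of all genes. GFM2, which splits ribosomes after termination, was at 22.3, 22.5 and 21.2 CPM in Hep3B shSLC6A8 and 41.2, 43.9 and 43.8 CPM in Hep3B shNC (-0.96 ± 0.06, adjusted p = 2.16e-06), against 0.17 ± 0.05 in Huh7 (adjusted p = 0.0118, edgeR; lost without shNC replicate 1, adjusted p = 0.053). GUF1, a GTPase that acts on elongating ribosomes in bacteria and yeast, was at 55.9, 54.8 and 54.1 CPM in Huh7 shSLC6A8 and 32.7, 31.7 and 35.8 CPM in Huh7 shNC (0.72 ± 0.06, adjusted p = 3.27e-08, edgeR). MTRF1, a release factor, changed by -0.46 ± 0.08 in Huh7 (adjusted p = 7.45e-05, edgeR), and MTFMT, which formylates the initiator tRNA, by 0.42 ± 0.10 in Hep3B (adjusted p = 0.00807, edgeR).

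Of 10 genes for the transcription and copying of mitochondrial DNA, 7 fell and 1 rose in Huh7 (5 and 1 with library totals, 1 and 1 on the TPM scale), and 0 fell and 2 rose in Hep3B (0 and 6 with library totals). The share called was 80% in Huh7 and 20% in Hep3B, against 61.8% and 40.1% of all genes. TWNK, the mitochondrial helicase, was at 36.7, 36.7 and 36.7 CPM in Huh7 shSLC6A8 and 54.2, 59.5 and 52.1 CPM in Huh7 shNC (-0.59 ± 0.06, adjusted p = 3.92e-07), but at 21.6, 23.3 and 23.2 CPM in Hep3B shSLC6A8 and 19.3, 18.4 and 18.4 CPM in Hep3B shNC (0.28 ± 0.07, adjusted p = 0.0129, edgeR; lost without shNC replicate 2, adjusted p = 0.0557). TFAM, which packages mitochondrial DNA, changed by 0.23 ± 0.05 in Huh7 (adjusted p = 0.000913, edgeR), a call lost once trends with length and GC content were taken out (adjusted p = 0.259).

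Of 10 regulators of mitochondrial biogenesis, 3 fell and 5 rose in Huh7 (3 and 3 with the length trend removed), and 4 fell and 1 rose in Hep3B (2 and 3 with library totals). The share called was 80% in Huh7 and 50% in Hep3B, against 61.8% and 40.1% of all genes. MYC fell in both lines, at 75.1, 70.8 and 73.3 CPM in Huh7 shSLC6A8 and 134, 141 and 132 CPM in Huh7 shNC (-0.90 ± 0.05, adjusted p = 1.25e-10), and by 0.47 on the log2 scale in Hep3B (adjusted p = 2.01e-05, edgeR). PPARGC1A, a coactivator of mitochondrial biogenesis, was at 10.03, 11.96 and 11.12 CPM in Hep3B shSLC6A8 and 23.3, 20.97 and 21.6 CPM in Hep3B shNC (-0.99 ± 0.09, adjusted p = 1.94e-05, edgeR). In Huh7 it was low, at 1.07 to 2.27 CPM over all 6 libraries, and not called. ESRRG, a nuclear receptor, rose in both lines (2.28 ± 0.54 in Huh7, adjusted p = 0.00151, and 1.16 ± 0.16 in Hep3B, adjusted p = 0.00029, edgeR), at no more than 0.97 CPM in any Huh7 library. The Huh7 call of ESRRG was lost on the TPM scale (log2 change 0.19, adjusted p = 0.101, limma). YY1 itself was at 0.06 ± 0.05 in Huh7 (adjusted p = 0.348) and -0.18 ± 0.05 in Hep3B (adjusted p = 0.0209, edgeR). How the changes of these lists bear on the ribosomal protein genes was not tested.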

How the data were processed

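RNA-seq of 12 libraries was analysed. Per the file headers, the authors deposited 1 table a line with estimated counts, TPM, gene length (score), a log2 fold change and an adjusted p-value. The submitters' processing notes name build GRCh38.p14; the aligner and counter, not given in the sources used here, can move overlapping genes; no other columns of sample values (0) were present. Estimated counts were rounded and tested with edgeR 4.0.16 (R 4.3.3; filterByExpr, TMM, robust quasi-likelihood F test, Benjamini-Hochberg adjustment over all genes, threshold 0.05) in each line, and for the difference between lines in 1 fit of 12 libraries. SEs were derived from the F statistic and are approximate. Depth was 21065965 to 28078068 counts. Replicates differed by more than counting error, with mean squared differences of 2.69 to 14.6 times those expected from counting. Where 1 symbol had several rows, the row with most reads was used. TPM served for levels, and with limma 3.58.1 on log2(TPM + 1) as an alternative. The edgeR test was also run on simulated counts with far fewer changed genes than were called here, so that run does not test the scaling. DESeq2 1.42.0 and others were alternatives. Members and gene lists were chosen with earlier results of these data known. Values are printed for the largest called changes (6 per line and direction), the 8 clearest differences between lines, the 4 highest and 4 lowest levels, members whose symbol and place differ, those called in both lines, and, of up to 3 called genes per list, line and direction, the largest; YY1 was added after its values were seen.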

Additional observations from a re-analysis of the deposited data

Results flagged for a closer look

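The change with shSLC6A8 differed between the lines by the edgeR interaction test (adjusted p under 0.05) for the following named genes, each value being the log2 change in Hep3B minus that in Huh7, over 3 libraries a group. Among large-subunit symbols the difference was 1.45 for MRPL41, 0.71 for MRPL4, 0.69 for MRPL18, 0.68 for MRPL46, 0.55 for MRPL36 and 0.39 for MRPL50. It was -0.83 for MRPL19, -0.70 for MRPL23, -0.58 for MRPL37, -0.46 for MRPL42, -0.34 for MRPL17 and -0.30 for MRPL15. Among small-subunit symbols it was 0.46 for MRPS12, 0.46 for MRPS18C and 0.40 for MRPS11, and it was -0.61 for MRPS25 and -0.33 for MRPS18B.

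The calls of MRPL15 (adjusted p = 0.0875) and MRPL17 (adjusted p = 0.0904) were lost with library totals. MRPL15 was also lost without any 1 of 6 libraries (Hep3B shNC replicate 2, shSLC6A8 replicates 1 and 2, Huh7 shNC replicates 1 and 3 and Huh7 shSLC6A8 replicate 2; adjusted p = 0.055 to 0.0783). MRPL17 was lost without any 1 of 7 (Hep3B shNC replicates 2 and 3, shSLC6A8 replicate 2, Huh7 shNC replicates 1 and 3 and Huh7 shSLC6A8 replicates 2 and 3; adjusted p = 0.0771 to 0.124). MRPS12 was lost without any 1 of 6 (Hep3B shNC replicate 1, shSLC6A8 replicates 1 and 3, Huh7 shNC replicate 2 and Huh7 shSLC6A8 replicates 1 and 2; adjusted p = 0.066 to 0.0826). MRPS18C was lost without Huh7 shSLC6A8 replicate 1 (adjusted p = 0.0546).

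Among other genes the same difference was -0.46 for MT-RNR1, -0.37 for MT-RNR2, 0.43 for DAP3, 0.81 for GADD45GIP1, 0.94 for MPV17L2, 0.72 for YBEY, -0.36 for NOA1 and -0.52 for MRM1. It was -1.13 for GFM2, -0.75 for GUF1, 0.87 for TWNK, -0.26 for TFAM, 0.43 for MYC, -1.33 for PPARGC1A and -1.47 for SLC6A8. The call of MRM1 was lost without Huh7 shNC replicate 3 (adjusted p = 0.0656), and that of TFAM with library totals (adjusted p = 0.088). Scaling each library by its total moved differences between lines up, as from -0.2961 to -0.2162 for MRPL15 and from -0.2594 to -0.1782 for TFAM. In the separate fits of the 2 lines, the all-gene median with library totals stood at 0.203 in Hep3B and 0.105 in Huh7.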

How the results depend on the processing

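In Huh7, calls numbered 9 at a log2 change of 0.5 or more (1 higher, 8 lower), and on the TPM scale 31 were higher and 20 lower. In Hep3B, calls numbered 28 with the length trend removed (9 higher, 19 lower), 31 with length and GC trends removed (11 and 20), 28 with library totals (27 and 1), 30 on the TPM scale (29 and 1), 7 at adjusted p under 0.01 (3 and 4) and 1 at a log2 change of 0.5 or more (1 and 0). The difference between lines had 27 higher and 9 lower calls with library totals.

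The Huh7 small-subunit median was -0.0142 with length and GC trends removed, -0.0195 with the length trend removed, 0.0107 with library totals and 0.0948 on the TPM scale. The large-subunit median was 0.0337, 0.016, -0.0322 and 0.0507 in the same order. In Hep3B the small-subunit median was 0.107 with library totals and 0.103 on the TPM scale, and the large-subunit median 0.139 and 0.158. On the TPM scale the values of MRPL51 (0.0485 in Huh7, 0.19 in Hep3B), MRPL46 (0.17 in Hep3B), MRPS18B (0.14 in Huh7), DAP3 (0.0974 in Hep3B) and MTRF1 (0.0517 in Hep3B) had the opposite sign, as had MRPL51 in Huh7 with length and GC trends removed (0.0152) and DAP3 in Hep3B with library totals (0.0357). The cause was not tested. The TPM and GC settings, and for medians limma-voom, the fit without the robust option and the libraries left out, were added after seeing the data.

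Leaving out each library in turn gave 48 to 55 calls in Huh7 (16 to 22 higher, 30 to 37 lower), 8 to 19 in Hep3B (3 to 10 higher, 5 to 16 lower) and 25 to 37 for the difference (13 to 26 higher, 9 to 16 lower). Medians then ran from -0.123 to -0.0436 for the small and -0.196 to -0.0818 for the large subunit in Huh7, and from -0.116 to -0.0372 and -0.126 to 0.0336 in Hep3B. Without Huh7 shNC replicate 1, MRPL44 (adjusted p = 0.0118) and MRPS31 (adjusted p = 0.0489) were called in Huh7, and without shNC replicate 2 MRPL57 (adjusted p = 0.00788).

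Same-numbered libraries showed no shared deviation, with correlations of -0.061 to 0.04 in Huh7 and -0.095 to 0.095 in Hep3B. The labels do not say whether libraries of the same number were handled together, and these correlations cannot decide it. With the replicate block there were 51 calls in Huh7, 17 in Hep3B and 29 for the difference. Of all alternatives for named genes, 2716 values stayed on their side of the threshold, 123 lost it, 68 gained it and 8 turned.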

Other observations

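Cytosolic ribosomal protein genes, listed after the results were known, stood beside the mitochondrial ones as follows. Of 82 tested, 42 were lower and 0 higher in Huh7 with shSLC6A8 (median -0.15), and 39 lower and 0 higher in Hep3B (median -0.23). These are 51.2% and 47.6% lower. Of all genes, 31.0% were lower and 30.9% higher in Huh7, and 21.2% lower and 18.9% higher in Hep3B. This one-sided picture depends on the scaling. With library totals it was 24 lower and 4 higher in Huh7 and 4 lower and 2 higher in Hep3B. The shares called were then 34.1% and 7.32%. Of all genes 62.3% and 50.5% were called with library totals, more of them higher than lower. With the length trend removed it was 27 lower and 19 higher in Huh7 and 64 lower and 0 higher in Hep3B. Of all genes, 31.9% were then lower and 31.2% higher in Huh7, and 24.4% lower and 22.3% higher in Hep3B. On the TPM scale it was 15 lower and 18 higher in Huh7 and 12 lower and 4 higher in Hep3B. Of all genes, 18.1% were lower and 35.0% higher in Huh7 on that scale, and 9.47% lower and 30.3% higher in Hep3B. No test sets one family against the other.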
